A study of Mus musculus with 70 samples.

Results

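Genes that mark astrocytes were followed in mice bred for extremes of anxiety: Aldoc, Gfap, Aqp4, Slc1a2, Slc1a3, Gja1, Glul, Agt, Apoe and Clu. The members are the spots of the MPIP24k cDNA array whose printed name is the full name or symbol of 1 of these genes. All 10 genes were found, with 29 probes among 22824 (24192 spots less 1368 control and empty spots). Glul had 9 probes, Aldoc 4, Slc1a2 and Gja1 3 each, Gfap, Slc1a3, Apoe and Clu 2 each, and Aqp4 and Agt 1 each. Probes are called by gene and spot number, such as Gja1 16855.

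HAB mice (bred for high anxiety-related behavior) were compared with LAB mice (bred for low anxiety-related behavior). Both lines descend from CD-1 mice, and the animals were males of 10 weeks from breeding generation 16, with no treatment or transgene in either line. From each of 7 brain regions, RNA punched from 6 HAB mice was set against RNA from 6 LAB mice on 10 two-color arrays, of which 5 carried HAB in Cy3 and the other 5 in Cy5. The regions are the paraventricular nucleus (PVN) and supraoptic nucleus (SON) of the hypothalamus, the basolateral (BLA), central (CeA) and medial (MeA) amygdala, the nucleus accumbens (NAc) and the cingulate cortex (Cg). RNA was amplified in 2 rounds and pooled by line and region, so each region has 1 HAB pool and 1 LAB pool, hybridized 10 times. A test over those 10 arrays compares 2 pools, with no measure of the spread between mice. A test over the 7 regions is set against the spread between regions, but the regions come from the same mice of 2 lines, so its p-values understate the uncertainty about the lines. Values are log2 HAB/LAB, so a positive value means more signal in HAB. A region value is the mean of both dye orientations, in which a dye effect cancels.

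Median spot intensity lay between 135 and 2480 over the 140 array channels, and of empty spots at up to 940. A probe was called above the empty spots in a channel when it exceeded their median by over 2 median absolute deviations. By that measure 21 of the 29 probes, from 8 of the 10 genes, were above the empty spots on at least 35 of the 70 arrays in HAB or LAB, against 12510 of all 22824 probes. Aqp4 24023 (29 HAB and 28 LAB channels of 70 each) and Agt 2758 (28 HAB and 27 LAB channels) were dim, as were Gfap 21489, Slc1a2 9416, Slc1a2 10403, Clu 16996, Glul 3949 and Glul 13011. Signal of Slc1a3, Glul, Gja1 and Aldoc was above the empty spots in all 70 HAB and all 70 LAB channels on the brightest probe of each, and that of Gfap, the usual astrocyte stain, in 52 HAB and 51 LAB channels. The peptide marker Avp was above the empty spots in 10 of 10 HAB and 10 of 10 LAB channels of the PVN and in 10 of 10 HAB and 5 of 10 LAB channels of the SON, and in at most 3 of 10 channels of a line in the other 5 regions. Oxt was above them in 10 HAB and 9 LAB channels of the PVN, but in only 2 HAB and 4 LAB channels of the SON, where it would also mark the punch. Of the striatal markers, Tac1 was highest in the NAc (13.01, mean log2 intensity), whereas Ppp1r1b was above the empty spots there in only 4 HAB and 2 LAB channels.

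Astrocytes take up the glutamate that neurons release, turn it into glutamine and return it. They are joined to each other by gap junctions, wrap blood vessels with endfeet rich in water channels, and secrete lipid carriers. Punched tissue holds all cell types of a region, so fewer astrocytes and less RNA per astrocyte cannot be told apart in these values.

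No member passed the test of HAB against LAB over the 7 regions. In limma's test on the 7 region values with Benjamini-Hochberg adjustment over all probes, 0 of 29 probes were higher and 0 lower in HAB at an adjusted p of 0.05, where 0.127% of all probes were higher and 0.175% lower. At an unadjusted p of 0.05, 7 of the 29 were lower and 0 higher, against 3.3% of all probes lower and 3.03% higher. The means of the probes over the 7 regions ran between -0.31 and 0.10, with a median of -0.03 over the 29 probes and -0.0006 over all probes. Of these means 12 lay above 0 and 17 below. The 7 lower probes were Slc1a3 13492, Glul 3005, Glul 6516, Glul 13998, Glul 16133, Aldoc 5314 and Aldoc 16219. A fit over the 70 arrays, which measures the mean of the 7 pool pairs against the spread between arrays only, called the same 7 probes lower, where 1.5% of all probes were lower by that fit.

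Differences between the pools of single regions were found for 5 of the 10 genes. A probe was counted in a region where HAB and LAB differed by 1.3-fold or more on average and every array of the 10 lay on 1 side of 0. Of the 203 pairs of probe and region, 10 were counted (4.93%), 2 higher and 8 lower in HAB, and they belonged to 9 probes of Aldoc, Slc1a3, Gja1, Glul and Apoe. All 10 were pairs of probes above the empty spots, of which 147 pairs gave 6.8%. Among all probes above the empty spots, 1.6% of the pairs were counted.

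The counted pairs lay in 4 regions. In the MeA 4 members were lower (0.307% of all probes) and 1 higher (0.28%), and in the Cg 3 were lower (0.824%) and 0 higher (0.767%). In the CeA 1 was lower (0.552%) and 0 higher (0.46%), and in the NAc 1 was higher (0.644%) and 0 lower (1.35%). No member was counted in the PVN, where 0.254% of all probes were higher and 0.482% lower, in the BLA, with 0.057% higher and 0.166% lower, or in the SON, with 0.32% higher and 0.237% lower. Limma over the 10 arrays of a region with a dye term, adjusted over all probes of that region, called 2 members in the NAc, where it called 1.27% of all probes in either direction. It called 0 members in the PVN (0.386% of all probes), BLA (0.101%), CeA (0.0701%), MeA (0.114%), Cg (0.53%) and SON (0.0789%). At an unadjusted p of 0.05, limma passed 8 of 29 members in the PVN (10.5% of all probes), 2 in the BLA (6.87%), 6 in the CeA (12.1%), 4 in the NAc (12.1%), 7 in the MeA (7.47%), 6 in the Cg (11%) and 1 in the SON (7.3%).

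The difference between the lines was unequal over the regions for 6 of the 29 probes (20.7%). In limma's F-test over the 70 arrays these were Gja1 16855, Gja1 3963, Glul 3005, Glul 16133, Slc1a3 8923 and Apoe 3518. The test called 6.1% of all probes. Among probes above the empty spots it held 6 of 21 members (28.6%) and 10.5% of all.

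**Figure D1:**
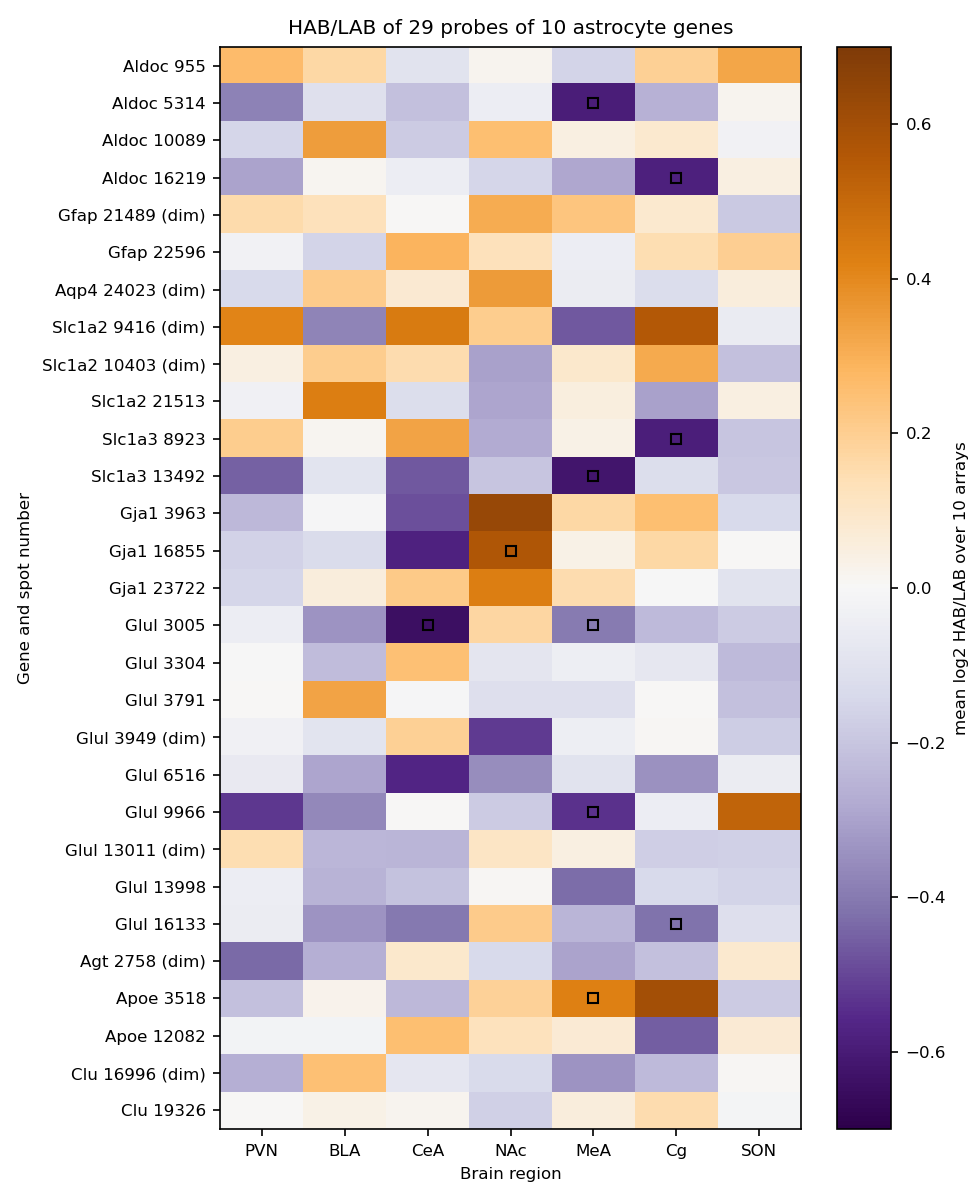
Mean log2 HAB/LAB over 10 arrays for each of the 29 probes (rows, gene and spot number) in each of 7 brain regions (columns), with brown for higher and purple for lower in HAB. Squares mark the 10 counted pairs, which lie in the CeA, NAc, MeA and Cg, and "dim" marks the 8 probes not above the empty spots on 35 of 70 arrays in either line.

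Glul codes for glutamine synthetase, the enzyme that makes glutamine from glutamate and ammonia, found in the brain mainly in astrocytes. Its 9 probes did not move alike. Glul 3005, Glul 13998, Glul 16133 and Glul 6516 were below 0 in 6, 6, 6 and 7 of 7 regions, with means over regions of -0.24, -0.18, -0.19 and -0.25. Glul 6516 was lowest in the CeA, at -0.56 (SD 0.39) with 9 of 10 arrays below 0, and was not counted there. The brightest probe, Glul 3304, averaged -0.06, and no spot of it reached the scanner's maximum.

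Glul 3005 was counted lower in the CeA and in the MeA. In the CeA its 10 arrays ran between -1.23 and -0.19 with a median of -0.66, and the mean of -0.64 (SD 0.34, n = 10 arrays) is a 1.56-fold lower signal in HAB. The channel levels were 10.95 in HAB and 11.59 in LAB (log2 intensity). The orientation means were -0.57 for HAB in Cy3 and -0.71 for HAB in Cy5. In the MeA the arrays ran between -0.59 and -0.15 with a median of -0.42, and the mean was -0.39 (SD 0.14, n = 10). Limma's adjusted p was 0.10 in the CeA and 0.49 in the MeA. In the NAc the same probe lay at 0.17 (SD 0.14) with 8 of 10 arrays above 0. The F-test gave Glul 3005 an adjusted p of 0.00124, which became 0.12 without the NAc and 0.060 without the CeA. The headers of the CeA arrays gave 2 dates. The 2 arrays of 1 date, both with HAB in Cy3, gave -0.29. The 8 arrays of the other date gave -0.74 with both orientations weighted equally.

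Glul 16133 was counted lower in the Cg, where its arrays ran between -0.67 and -0.17 with a median of -0.44 and a mean of -0.42 (SD 0.16, n = 10; limma's adjusted p 0.26). It lay at 0.21 in the NAc, where the orientations split into -0.13 for HAB in Cy3 and 0.55 for HAB in Cy5. Its F-test gave an adjusted p of 0.028, which became 0.51 without the NAc and passed the threshold in 8 of 18 alternatives. Over the 7 regions the region values of Glul 3005 and Glul 16133 correlated with r = 0.86, those of Glul 3005 and Glul 13998 with r = 0.73, and those of Glul 3005 and Glul 3304 with r = -0.48 (n = 7 regions that share the same arrays).

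Glul 9966, a dimmer probe with 33 HAB and 36 LAB channels of 70 above the empty spots, was counted lower in the MeA at -0.54 (SD 0.35, lowest array -1.17, median -0.55, n = 10; limma's adjusted p 0.385). There 4 of 10 HAB and 8 of 10 LAB channels were above the empty spots. In the SON it lay at 0.52 (SD 0.65), with 7 of 10 arrays above 0. The mean over all 9 Glul probes was below 0 in 7 of 7 regions and averaged -0.14, with limma's adjusted p at 0.79.

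**Figure D2:**
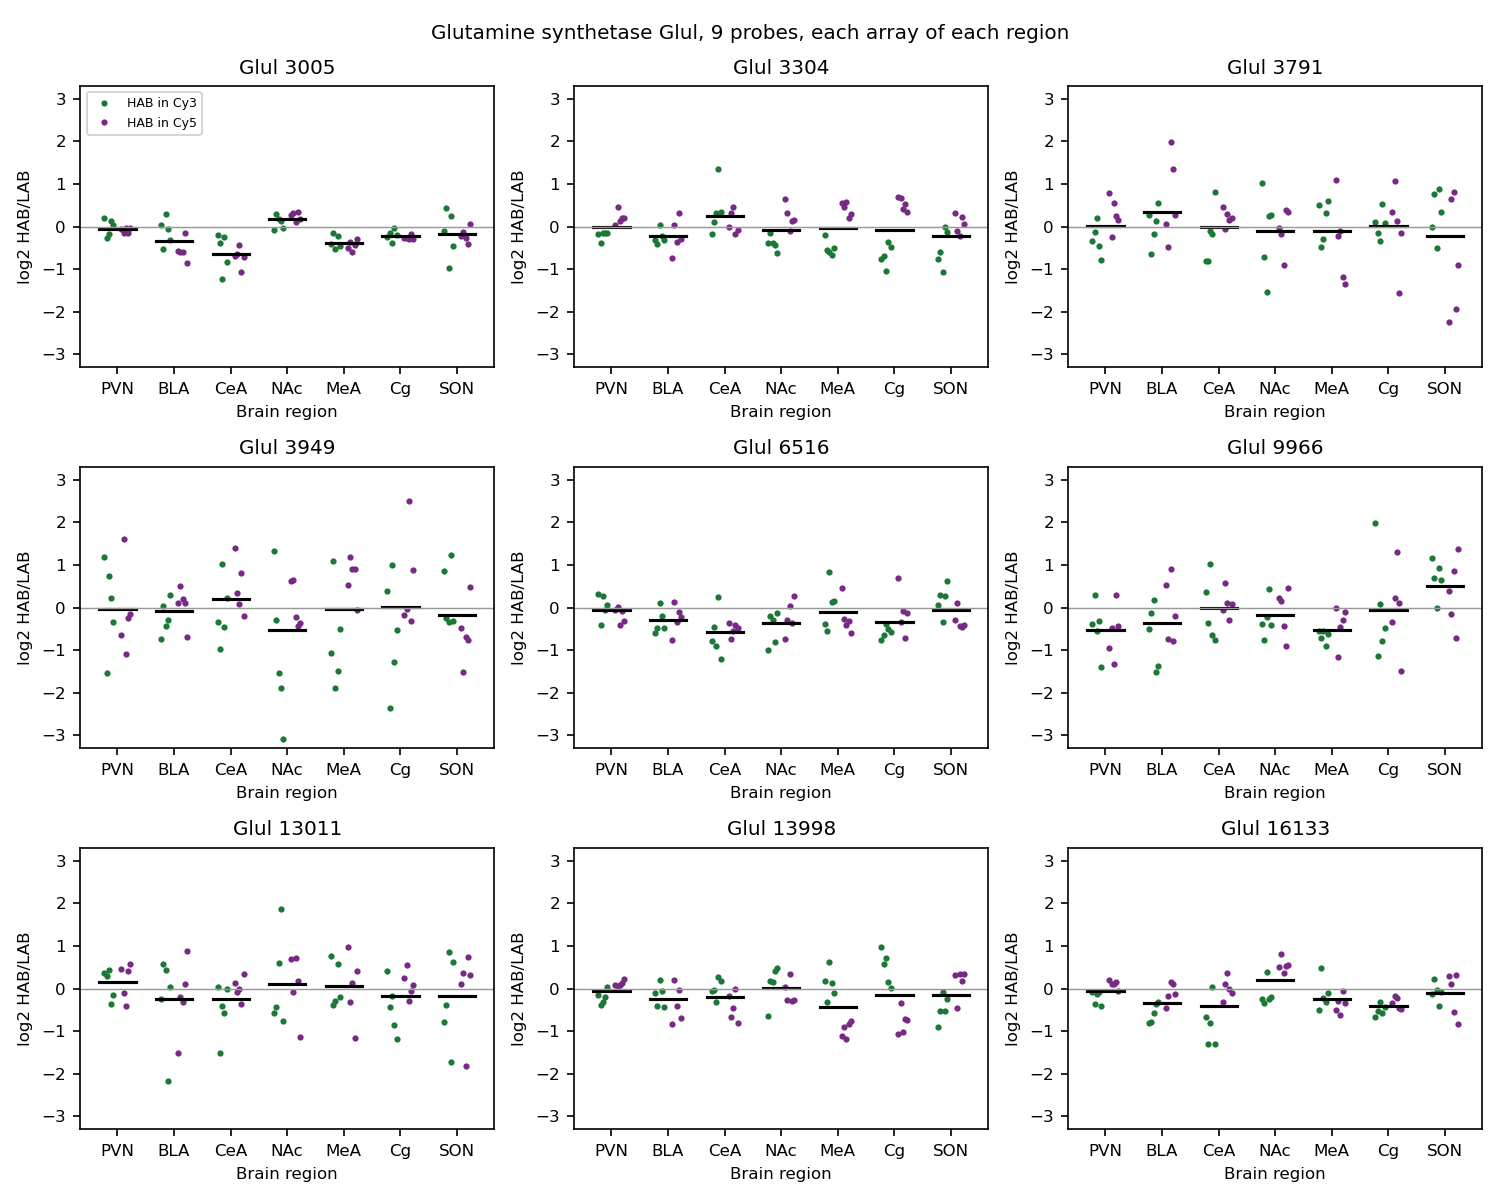
Log2 HAB/LAB of each of the 9 Glul probes on every array, by brain region. Points are single arrays, green with HAB in Cy3 and purple with HAB in Cy5, and bars are region means. Glul 3005 has all 10 arrays below 0 in the CeA and MeA, whereas Glul 3949 spreads over more than 3 log2 units in the NAc.

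Slc1a3 codes for the glutamate transporter GLAST and Slc1a2 for GLT-1, which together clear most glutamate from the synaptic cleft. The 2 Slc1a3 probes were both above the empty spots but ran against each other over the regions (r = -0.67, n = 7 regions that share the same arrays). Slc1a3 8923 was counted lower in the Cg. Its 10 arrays ran between -1.38 and -0.02 there with a median of -0.51, and the mean was -0.59 (SD 0.45), with levels of 12.05 in HAB and 12.64 in LAB. The orientations gave -0.31 for HAB in Cy3 and -0.87 for HAB in Cy5. Limma's adjusted p was 0.14.

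In the CeA and PVN Slc1a3 8923 lay above 0, at 0.33 (SD 0.44, 7 of 10 arrays above 0) and 0.21 (SD 0.16, 9 of 10 arrays). In the NAc it lay at -0.28 with 10 of 10 arrays below 0, short of 1.3-fold. Its line difference was unequal over the regions (F-test adjusted p 0.00140), and that p became 0.12 without the Cg and 0.092 without replicate 5. The headers of the Cg arrays gave 2 dates. The 6 arrays of 1 date gave -0.60 with both orientations weighted equally. The 4 arrays of the other date, all with HAB in Cy3, gave -0.30.

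Slc1a3 13492 was the member with the smallest p over the regions. It was below 0 in 7 of 7 regions, with a mean of -0.31 (SE 0.09), an unadjusted p of 0.00145 and an adjusted p of 0.23 by limma. Region values ran between -0.62 in the MeA and -0.09 in the BLA, with -0.45 in the PVN and -0.47 in the CeA, where 9 of 10 arrays were below 0 in each. In the MeA all 10 arrays were below 0, between -1.52 and -0.02 with a median of -0.48, and this pair was counted lower. The orientations differed there, at -0.23 for HAB in Cy3 and -1.02 for HAB in Cy5. Over all regions the orientations gave -0.08 and -0.53 in the same order, and the mean of the second passed limma's test alone. In the BLA the orientation changed the sign, 0.52 for HAB in Cy3 and -0.70 for HAB in Cy5, with an adjusted p of 0.025 for the dye term.

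The 3 Slc1a2 probes gave no counted pair. Slc1a2 9416 and Slc1a2 10403 were dim, and Slc1a2 21513 lay between -0.30 in the Cg and 0.43 in the BLA with SDs of 0.41 to 1.14 over 10 arrays. Only the region values of the NAc, MeA, Cg and SON of Slc1a2 21513 rest on a signal above the empty spots in at least 8 of 10 channels of each line. They were -0.29, 0.05, -0.30 and 0.05 in that order.

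Gja1 codes for connexin 43, the main gap junction protein of astrocytes. Its bright probes, Gja1 3963 and Gja1 16855, gave nearly the same region values (r = 0.96 and a mean gap of 0.10 over 7 regions that share the same arrays). Both were highest in the NAc and lowest in the CeA. In the NAc Gja1 16855 had all 10 arrays above 0, between 0.06 and 0.93 with a median of 0.55, and a mean of 0.57 (SD 0.25), which is 1.48-fold higher in HAB. The levels were 12.18 in HAB and 11.61 in LAB. HAB in Cy3 gave 0.42 and HAB in Cy5 gave 0.71.

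Gja1 3963 in the NAc lay between -0.09 and 1.26 with a median of 0.59 and a mean of 0.63 (SD 0.41, 9 of 10 arrays above 0), and levels of 11.36 in HAB and 10.73 in LAB. These were the 2 members that passed limma within a region, at adjusted p = 0.042 for Gja1 16855 and 0.024 for Gja1 3963. Both calls were lost without the print-tip medians, when any replicate number was left out, and in the fit that blocked on that number. The third, dimmer probe, Gja1 23722, was at 0.43 in the NAc (SD 0.52, 8 of 10 arrays above 0, adjusted p 0.26).

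In the CeA Gja1 16855 averaged -0.58 (SD 0.37, range -1.12 to 0.14, 9 of 10 arrays below 0) and Gja1 3963 averaged -0.48 (SD 0.56, 8 of 10 arrays below 0). Neither was counted, and limma gave adjusted p = 0.13 and 0.19. Levels of Gja1 16855 there were 12.21 in HAB and 12.78 in LAB. For Gja1 3963 the orientations split, at -0.03 for HAB in Cy3 and -0.94 for HAB in Cy5, while Gja1 16855 gave -0.70 and -0.45 in the same order. Gja1 23722 was at 0.22 (SD 0.95) in the CeA, where 0 of 10 HAB and 0 of 10 LAB channels were above the empty spots.

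The F-test over the regions gave adjusted p = 2.07e-05 for Gja1 16855 and 3.31e-04 for Gja1 3963. Without the NAc these became 0.034 and 0.098. In the MeA and Cg Gja1 3963 followed the dye, with 0.77 and 1.00 for HAB in Cy3 and -0.43 and -0.49 for HAB in Cy5 (adjusted p of the dye term 0.048 and 0.016), and its region means of 0.17 and 0.26 were not counted.

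**Figure D3:**
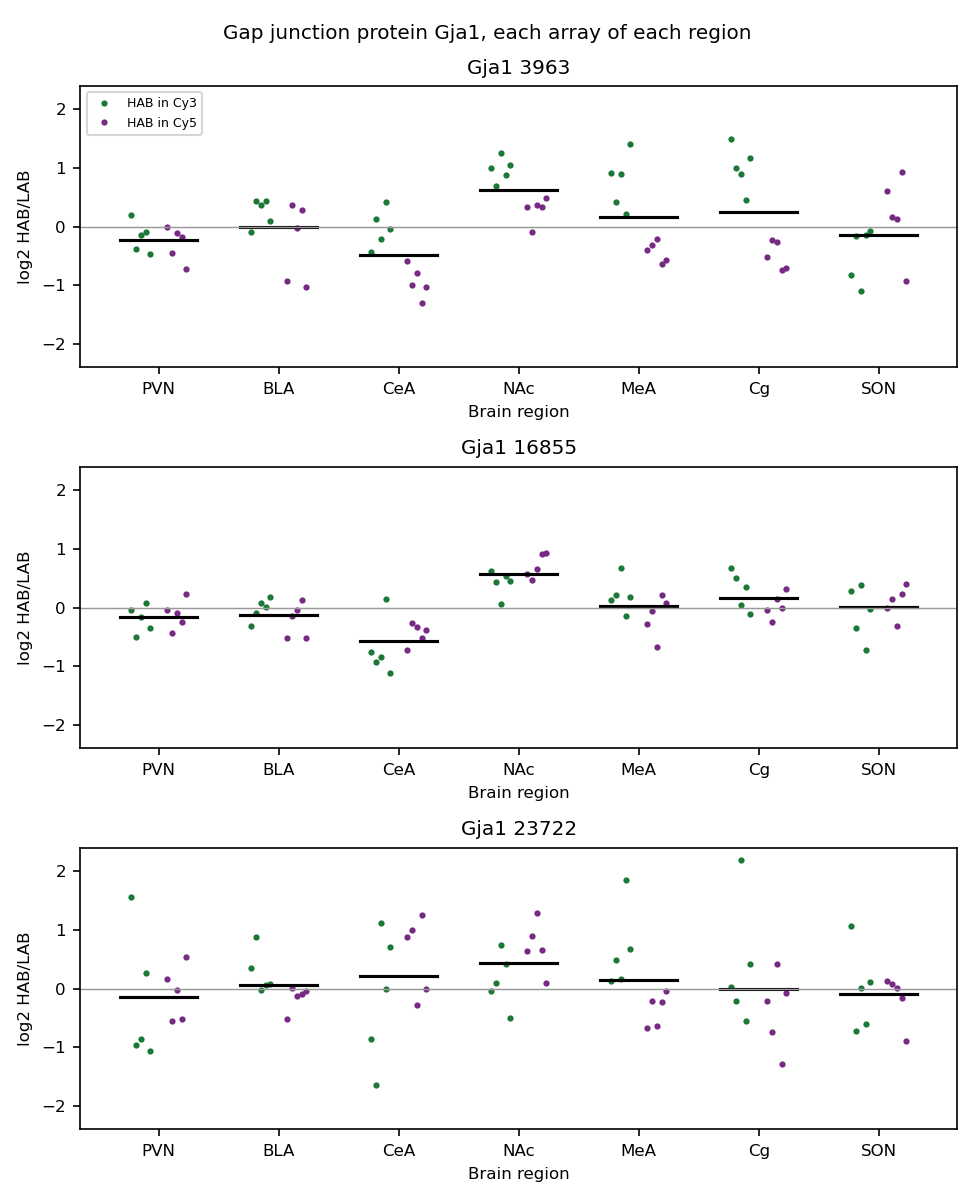
Log2 HAB/LAB of the 3 Gja1 probes on every array, by brain region, green with HAB in Cy3 and purple with HAB in Cy5, with bars at the region means. Gja1 16855 has 10 of 10 arrays above 0 in the NAc and 9 of 10 below 0 in the CeA, and in the MeA and Cg the arrays of Gja1 3963 separate by dye.

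Markers of other cells were read beside these values from their brightest probes. In the NAc 7 of 10 endothelial genes lay above 0 with a median of 0.16, and their mean level per array ran between 8.75 and 9.19 in HAB and between 8.44 and 9.07 in LAB. All 6 choroid plexus and ependyma genes on the array lay above 0 there, with a median of 0.25, a mean level of 8.95 to 9.41 in HAB and 8.43 to 9.20 in LAB. Of 10 oligodendrocyte genes 7 lay above 0 (median 0.19), but 2 of them were counted lower and their mean level was 10.72 in HAB and 10.79 in LAB. Tek, Flt1 and Pecam1 of the endothelial list and Folr1, Aqp1 and Otx2 of the choroid plexus list were not above the empty spots on 35 of 70 arrays in either line. The part of other cells in the NAc values of Gja1 was not tested.

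Aqp4 codes for the water channel of astrocyte endfeet. Its single probe, Aqp4 24023, was not counted in any region and lay between -0.14 in the PVN and 0.35 in the NAc. In the NAc 7 of 10 HAB channels and 0 of 10 LAB channels were above the empty spots, with levels of 8.41 in HAB and 8.05 in LAB (SD 0.61 each, n = 10). The 10 arrays there ran between -0.42 and 1.74, with 6 above 0 and limma's adjusted p at 0.51.

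Gfap, the intermediate filament by which astrocytes are commonly stained, showed no counted pair. Gfap 22596 had a mean over regions of 0.08 (SE 0.08, limma's adjusted p 0.94) and region values between -0.16 in the BLA and 0.29 in the CeA. Its arrays separated by dye in the SON, at 1.33 for HAB in Cy3 and -0.93 for HAB in Cy5 (dye term adjusted p 0.021), and the SD there was 1.30. In the BLA only 1 of 10 HAB and 2 of 10 LAB channels were above the empty spots. Gfap 21489 was dim throughout, with 17 HAB and 12 LAB channels of 70 above the empty spots.

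Aldoc codes for aldolase C, the glycolytic enzyme that marks gray matter astrocytes and, in the cerebellum, Purkinje cells. Its bright probes were each counted lower in 1 region. Aldoc 5314 was counted in the MeA, where its arrays ran between -1.06 and -0.21 with a median of -0.56 and a mean of -0.59 (SD 0.28), a 1.51-fold lower signal in HAB. The levels were 12.01 in HAB and 12.60 in LAB. Aldoc 16219 was counted in the Cg, with arrays between -1.02 and -0.27, a median of -0.52, a mean of -0.58 (SD 0.26).

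Both probes also lay below 0 where the other was counted. Aldoc 16219 averaged -0.29 (SD 0.26) in the MeA with 8 of 10 arrays below 0, and Aldoc 5314 averaged -0.26 (SD 0.27) in the Cg with 8 of 10. In the PVN Aldoc 5314 lay at -0.38 and Aldoc 16219 at -0.30, each with 9 of 10 arrays below 0. None of these passed limma within a region, where the counted pairs had adjusted p = 0.25 in the MeA and 0.11 in the Cg. In the Cg the 6 arrays of 1 header date gave -0.75 for Aldoc 16219 with orientations weighted equally. The 4 arrays of the other date, all with HAB in Cy3, gave -0.42.

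The dimmer Aldoc probes lay on both sides of 0 in the MeA, Cg and PVN, where both bright probes lay below it. Signal of Aldoc 955 was above the empty spots in all 10 HAB and all 10 LAB channels of each of these regions. Aldoc 955 lay at -0.16 in the MeA, 0.19 in the Cg and 0.26 in the PVN. Aldoc 10089 lay at 0.04 in the MeA, 0.09 in the Cg and -0.15 in the PVN, and none of these was counted. The mean over all 4 Aldoc probes averaged -0.06 over the regions and was above 0 in 3 of 7, with limma's adjusted p at 0.94. Over the 7 regions Aldoc 955 correlated with Aldoc 5314 at r = 0.48 and with Aldoc 16219 at r = 0.02 (n = 7 regions that share the same arrays). The F-test of the bright probes was just short of the threshold, with adjusted p = 0.057 for Aldoc 5314 and 0.068 for Aldoc 16219, and both passed it without background correction, with print-tip loess, in the authors' log2 ratios and among probes above the empty spots.

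Apoe and Clu code for the apolipoproteins E and J that astrocytes secrete, and Agt for angiotensinogen, which astrocytes make in the brain. Apoe 3518 was counted higher in the MeA. Its 10 arrays ran between 0.15 and 0.75 with a median of 0.41, and the mean was 0.43 (SD 0.23), with levels of 11.29 in HAB and 10.87 in LAB. The orientations gave 0.38 for HAB in Cy3 and 0.47 for HAB in Cy5. In the Cg its mean was 0.60 (SD 0.35, range -0.18 to 1.14), with 9 of 10 arrays above 0. Levels there were 10.61 in HAB and 10.01 in LAB. Limma's adjusted p was 0.48 in the MeA and 0.13 in the Cg.

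In the SON 9 of 10 arrays of Apoe 3518 lay below 0, with a mean of -0.18 (SD 0.30). In the CeA the arrays separated by dye, at 0.57 for HAB in Cy3 and -1.04 for HAB in Cy5 (dye term adjusted p 0.0375). The F-test gave Apoe 3518 an adjusted p of 0.00125, and 0.067 without the Cg. The second probe, Apoe 12082, lay at -0.46 (SD 0.77) in the Cg with 8 of 10 arrays below 0, opposite to Apoe 3518, and at 0.07 (SD 1.14) in the MeA. In the Cg only 3 of 10 HAB and 5 of 10 LAB channels of Apoe 12082 were above the empty spots. Its orientations there gave -1.01 for HAB in Cy3 and 0.095 for HAB in Cy5.

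In the Cg, where 3 members were counted lower and Apoe 3518 lay above 0, 9 of 9 microglial genes lay below 0 (median -0.24, mean level 8.34 to 8.82 in HAB and 8.51 to 9.05 in LAB), and none was counted. C1qa, C1qb, C1qc and Aif1 of that list were not above the empty spots on 35 of 70 arrays in either line. Other lists were low in the Cg too, with 4 of 6 choroid plexus genes (median -0.24), 6 of 9 neuronal genes (-0.14) and 6 of 10 oligodendrocyte genes (-0.05) below 0. Of the endothelial genes 3 of 10 lay below 0 there (median 0.04), and the median of all probes was 0.004. Neither the microglial nor another list was tested for its part in these values.

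**Figure D4:**
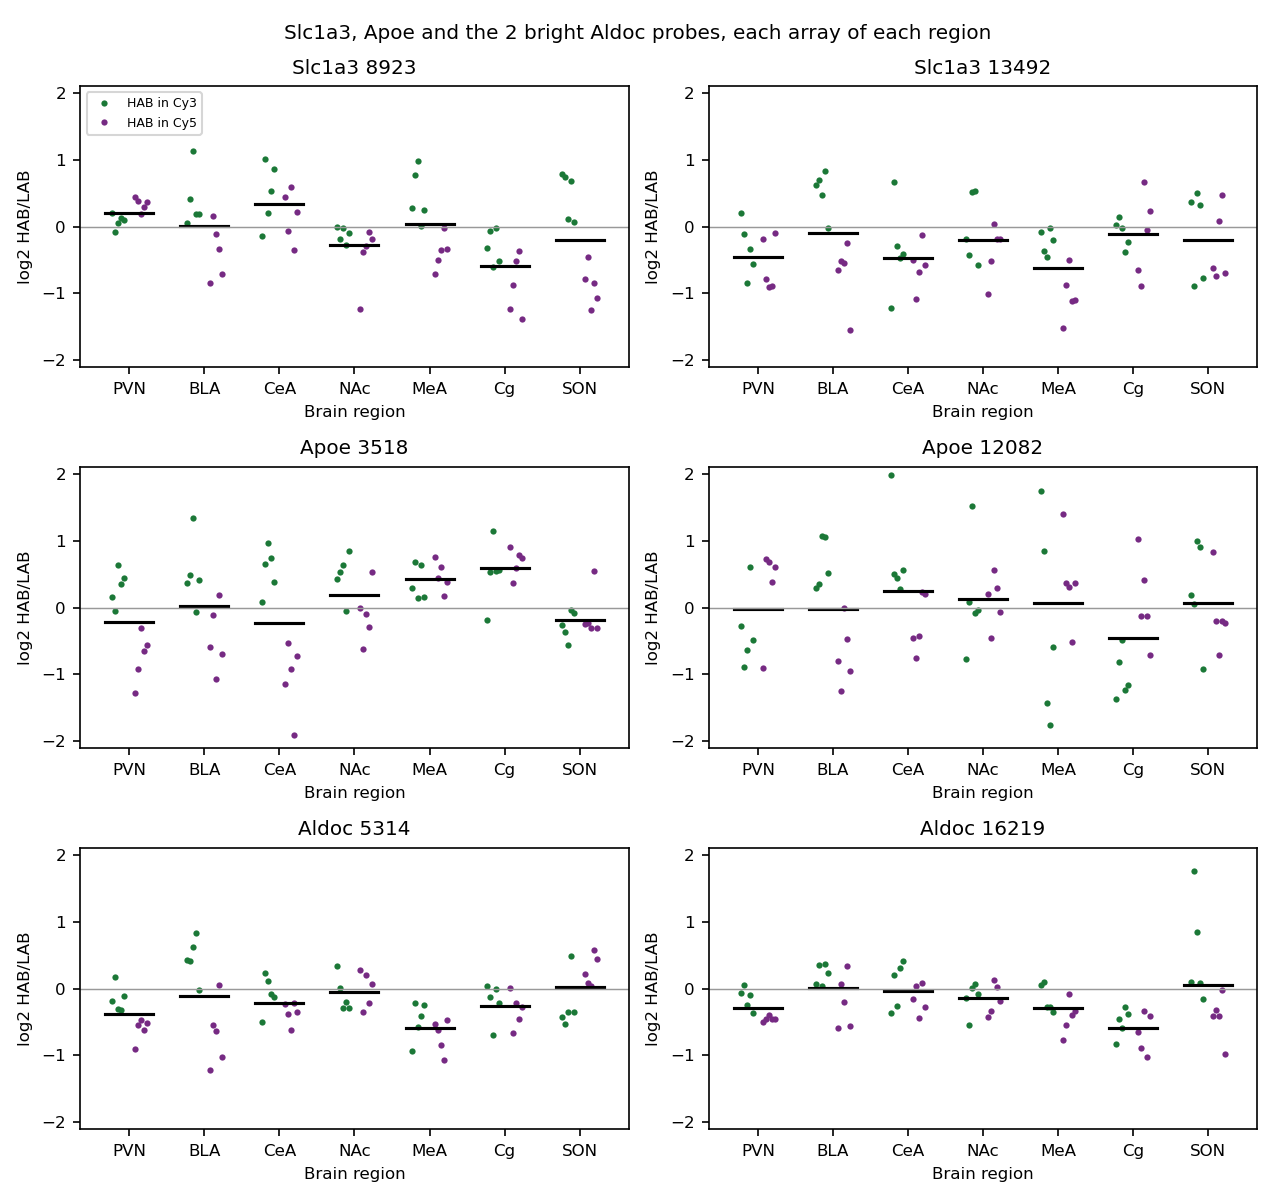
Log2 HAB/LAB of both Slc1a3 probes, both Apoe probes and the bright Aldoc probes on every array, by brain region, green with HAB in Cy3 and purple with HAB in Cy5, with bars at the region means. Slc1a3 8923 and Aldoc 16219 have all 10 arrays below 0 in the Cg, where Apoe 3518 has 9 of 10 above 0, and Apoe 12082 in the Cg does not follow Apoe 3518.

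Clu 19326 lay within -0.17 (NAc) and 0.15 (Cg) in all regions and Clu 16996, a dim probe, within -0.34 (MeA) and 0.25 (BLA), with no counted pair. In the PVN 0 of 10 HAB and 0 of 10 LAB channels of Clu 19326 were above the empty spots (SD 0.91). In the CeA 3 HAB and 5 LAB channels were (SD 0.85), and in the BLA 5 and 5 (SD 0.66), so its values near 0 there rest on weak signal. Agt 2758 was measured in all 10 HAB and all 10 LAB channels of the PVN only. There it lay at -0.43 (SD 0.52, range -1.36 to 0.30, 8 of 10 arrays below 0), with levels of 8.84 in HAB and 9.28 in LAB, an unadjusted p of 0.020 and an adjusted p of 0.38 by limma.

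The dye orientation moved some of these values. In 10 of the 203 pairs (4.93%) the dye term passed limma, against 2.83% over all probes. The orientations had opposite signs in 100 pairs. Noise around a difference near 0 can also give this, and no share over all probes is given for it. Of the 10 counted pairs, 0 had a dye term past the threshold. The count asks for every array of both orientations on 1 side of 0, so this number was largely fixed by the choice of pairs. Orientation means could still differ, as for Slc1a3 13492 in the MeA, with -0.23 for HAB in Cy3 and -1.02 for HAB in Cy5.

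Of 54 further astrocyte genes listed, 46 were on the array, 37 of them above the empty spots. Over the regions 1 was lower (Mt1) and 0 higher in limma's test, with a median of -0.01 and 22 genes above 0. Of their 322 pairs of gene and region 8 were counted (2.48%), 1 higher and 7 lower. Among all probes above the empty spots 1.6% of pairs were counted, a share without the dim probes that the 46 genes include. The F-test called 4 of the 46 genes (8.7%), against 6.1% of all probes and 10.5% of those above the empty spots. Mt1, which codes for metallothionein 1, a metal-binding protein abundant in astrocytes, was below 0 in 7 of 7 regions. It averaged -0.67 (SE 0.10, adjusted p 6.84e-04), with region values between -1.30 in the MeA and -0.16 in the BLA, and was counted lower in the NAc, MeA and Cg. The next smallest p-values belonged to Kcnj16, a potassium channel subunit, at 0.30 (adjusted p 0.45), whose probe was dim with 32 HAB and 16 LAB channels of 70 above the empty spots, and Mlc1, a membrane protein of astrocyte endfeet, at 0.25 (adjusted p 0.54).

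None of the 9 neuronal, 10 oligodendrocyte, 9 microglial, 10 endothelial and 6 choroid plexus genes passed the test over regions by limma, and 1 neuronal, 1 oligodendrocyte and 1 microglial gene had an unadjusted p under 0.05. Their list medians over the regions ran between -0.07 and 0.02. On the brightest probe of each gene, 5 of 10 oligodendrocyte genes and 3 of 6 choroid plexus genes passed the F-test, against 3 of the 10 member genes. Of the oligodendrocyte pairs 9 of 70 were counted (12.9%), 5 higher and 4 lower, and of the choroid plexus pairs 2 of 42 (4.76%), against 4 of 70 member pairs (5.71%) on the same basis. The difference between these lists was not tested.

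Levels were described with no test, since every array carried 1 region, and a region cannot be told apart from the arrays it was measured on. On the brightest probe of each gene, Slc1a2 21513 was listed at 7.54 to 8.42 (log2 intensity, mean of both lines) in the PVN, BLA and CeA and at 10.2 to 10.3 in the other 4 regions. The dim probes of that gene showed no such step. Slc1a2 9416 lay between 7.26 in the SON and 8.39 in the BLA, and Slc1a2 10403 between 7.22 in the Cg and 7.63 in the SON. Clu 19326 was lowest in the PVN at 7.03 and highest in the NAc at 9.78. Gfap 22596 was lowest in the BLA at 8.33 and highest in the NAc at 10.1, and Agt 2758 was highest in the PVN at 9.06. Glul 3304 lay between 14.65 in the PVN and 15.37 in the Cg, and Gja1 16855 between 11.66 in the Cg and 12.73 in the BLA. With each array scaled to its median instead, the highest region became the NAc for Slc1a2 and the PVN for Slc1a3 and Gja1, and the lowest region of Glul 3304 became the CeA at 14.35, with the PVN at 15.07 and a gap between highest and lowest region of 1.37 in place of 0.72. The median over the 10 genes of the gap between highest and lowest region was 1.53, and 1.76 with that scaling. Neighbors in these orders differed by less than the larger of their SDs over 10 arrays (0.17 to 1.52), except that the lowest region of Clu (PVN) and Gfap (BLA), the 3 low regions of Slc1a2, and the SON, MeA and PVN of Agt stood further from the rest.

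**Figure D5:**
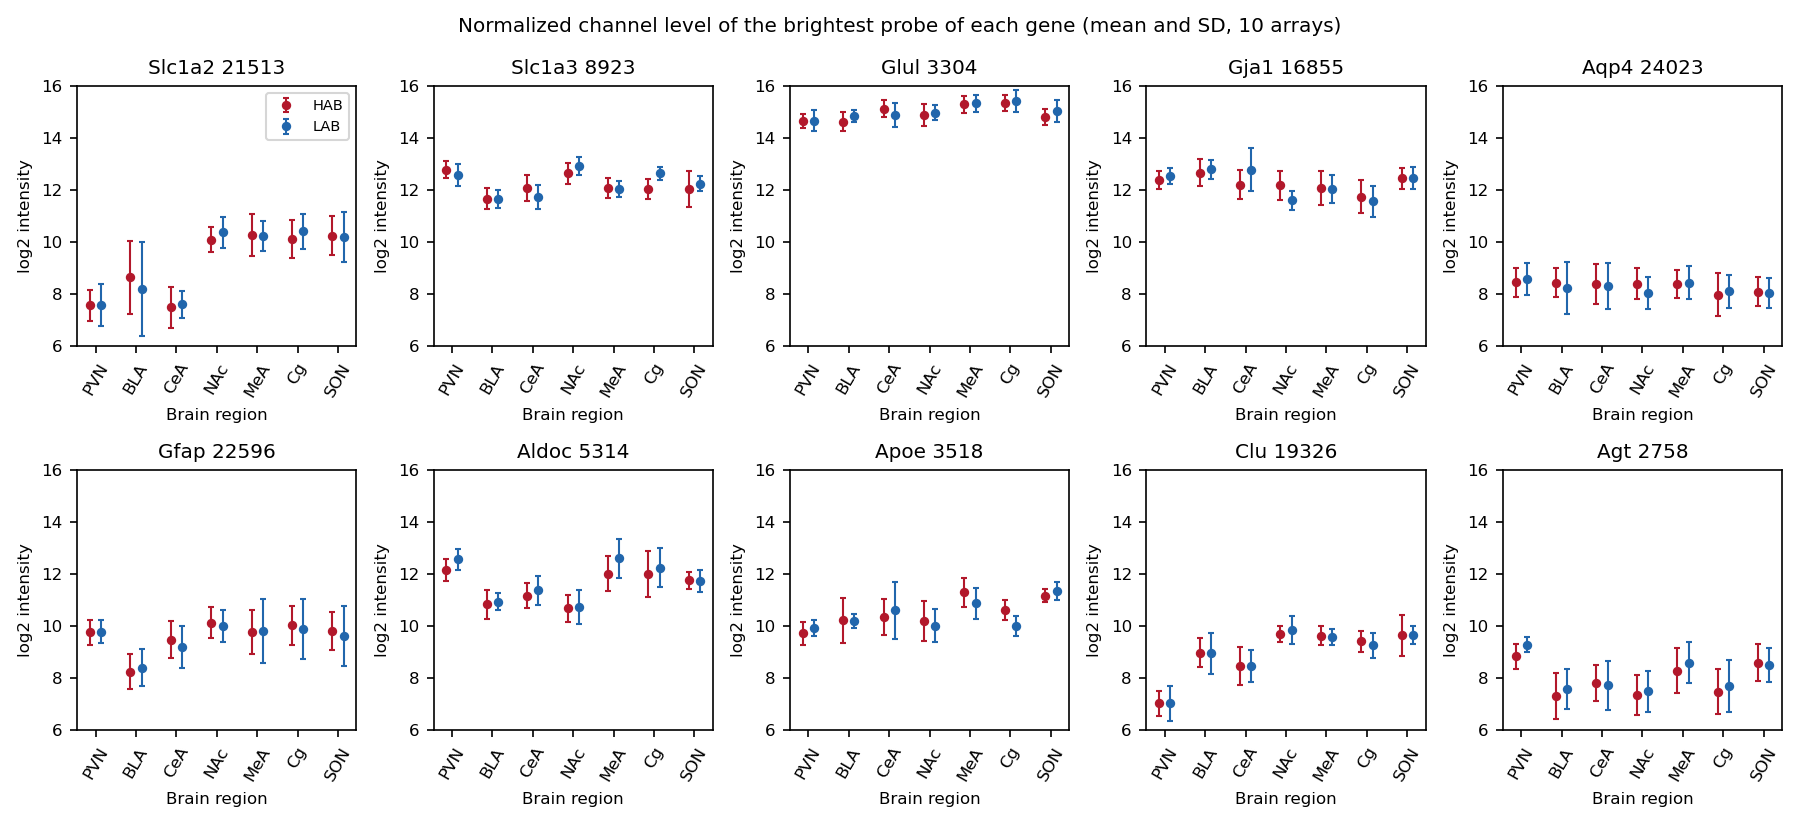
Normalized log2 intensity of the brightest probe of each gene in HAB (red, left) and LAB (blue, right) channels, by brain region, as mean and SD over 10 arrays. HAB and LAB means stay within 0.6 of each other everywhere, as for Gja1 16855 in the NAc (12.18 and 11.61), and Slc1a2 21513 is near 8 in 3 regions and above 10 in the other 4.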

How the data were processed

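Two-color arrays of HAB and LAB pools were analyzed, 10 for each of 7 regions. The authors deposited unnormalized scanner intensity values of every spot and a table of log2 ratios normalized by their own loess, which served as an alternative. That table correlated with HAB/LAB of the same arrays at 0.861 to 0.972 in both orientations, so its direction is HAB over LAB. Its column medians lie within -0.00698 and 0.0106. The dye of each channel was read from the file headers (on 3 arrays from the image name). Labels of groups came from the sample labels. Spots had been quantified by QuantArray with no background subtraction.

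Intensities were corrected by limma 3.58.1 (R 4.3.3) with normexp and an offset of 50, normalized by loess over 40% of the spots with controls at weight 0, and centred on the median of each of 48 print-tip blocks. Of the local background values 79.8% were 0. Levels are the mean log2 of both channels after Aquantile. Tests were limma over 7 region values, limma with a dye term within a region, a limma F-test over 70 arrays, each adjusted over 22824 probes at 0.05, and the 1.3-fold count. Scripts were tested on simulated data. The number of arrays limits the precision. Every member probe is named, and of the other astrocyte list the genes past the test and the 3 with the smallest p. Unmatched list genes were not analysed here. Members and lists were chosen with earlier results of these data known.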

Additional observations from a re-analysis of the deposited data

Results flagged for a closer look

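HAB against LAB differed between the 7 regions for 6 probes by limma's F-test, with adjusted p = 2.07e-05 for Gja1 16855, 3.31e-04 for Gja1 3963, 0.00124 for Glul 3005, 0.00125 for Apoe 3518, 0.0014 for Slc1a3 8923 and 0.028 for Glul 16133. These p-values compare pools.

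In 15 of the 203 sets of 10 arrays, the gap between the highest or lowest array and its nearest neighbor took up more of the set's range than Dixon's 95% limit allows, which chance passes in about 1 in 20 sets. High arrays were seen for Gja1 23722 at 2.20 in the Cg, 1.86 in the MeA and 1.07 in the SON, for Apoe 12082 at 1.98 and Glul 3304 at 1.36 in the CeA, for Aldoc 955 at 0.88 in the PVN, for Glul 6516 at 0.70 in the Cg, for Apoe 3518 at 0.55 in the SON and for Glul 16133 at 0.47 in the MeA. Low arrays were seen for Clu 19326 at -2.44 in the SON, Clu 16996 at -2.19 in the PVN, Aldoc 955 at -1.75 in the BLA, Glul 13011 at -1.52 in the CeA, Slc1a2 21513 at -1.26 in the NAc and Slc1a3 8923 at -1.23 in the NAc. None of these sets is among the 10 counted pairs.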

How the results depend on the processing

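The 10 counted pairs kept their sign without background correction, without the print-tip medians and with print-tip loess, and so did the 9 with a value in the authors' log2 ratios. Under the other alternatives the choice of pairs fixes the sign. The number of counted pairs was 6 without the print-tip medians and 4 at 1.5-fold, and ran between 9 and 14 when a replicate number was left out. The 2 limma calls within regions, Gja1 3963 and Gja1 16855 in the NAc, were 0 without the print-tip medians and 0 without any 1 replicate number. Limma called 14 pairs in the authors' log2 ratios and 10 among probes above the empty spots, where fewer probes were tested. Over the regions 0 members passed, except 1 (Slc1a3 13492) with HAB in Cy5 only and 7 in the fit over 70 arrays with no replicate block. Of all probes 2.31% passed that fit. Orientation alone gave 2 other astrocyte genes with HAB in Cy3 only and 2 with HAB in Cy5 only, Mt1 in both, and 2 genes of other cell types in each. Members past the F-test were 6 as reported, 8 without background correction, 8 with print-tip loess, 8 among probes above the empty spots and 9 in the authors' log2 ratios. Without the print-tip medians only Slc1a3 8923, Gja1 3963, Gja1 16855 and Apoe 3518 passed it, and Glul 3005 and Glul 16133 did not. Members past the F-test ran between 3 (without replicate 5) and 5 when a replicate number was left out, and were 3 without the NAc, an alternative chosen after seeing the data. For the counted pairs, the limma calls within regions and the F-test, no share of all probes is given under these alternatives. A higher number of members there cannot be read as a stronger result for the members. The cause of these moves was not tested.

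With the replicate number as a block, 6 members passed over 70 arrays, where 1.85% of all probes passed. With that block 0 members passed limma within a region and 5 passed the F-test, with no share of all probes given for these 2 tests. These arrays share only a number: every pair's correlation was at or below 0.0422, and 8 of 35 pairs correlated best within their own number.

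Arrays are technical replicates of pools, so no test here measures the spread between mice. Depth is signal over background here: 8 of the 29 probes were not above the empty spots on 35 of 70 arrays in either line, and differences of these were not measurable with the same precision.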
